A study of Mus musculus with 6 samples.

Results

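Hox genes encode homeodomain transcription factors that tell cells where along the body they lie. In mice they stand in 4 clusters, called Hoxa, Hoxb, Hoxc and Hoxd, and genes with the same number in different clusters, called paralogues, descend from a common ancestor. Along each cluster, genes with low numbers act towards the head and genes with high numbers towards the tail and the tips of the limbs, and fibroblasts are known to keep a Hox pattern that reflects the site they came from. *Hotair* is a long noncoding RNA transcribed from within the Hoxc cluster, between *Hoxc11* and *Hoxc12*, and has been linked to silencing of genes of the Hoxd cluster.

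The members described here were all genes whose symbol is Hoxa, Hoxb, Hoxc or Hoxd plus a number and that had a probe set (a group of short array probes) annotated to that gene alone. They were 33 of 18193 genes measured: 9 of Hoxa, 9 of Hoxb, 7 of Hoxc and 8 of Hoxd. Hox genes without a probe set of their own, such as *Hoxc11* and *Hoxc12*, which flank *Hotair*, were not analysed here. The choice of members used no measured value, and where a gene had several probe sets the one with the highest mean over all arrays stood for it.

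The samples were neonatal tail tip fibroblasts of mice backcrossed to C57BL6 with over 97% similarity, with 3 samples of the *Hotair* wild type and 3 of the *Hotair* knockout. Each sample was hybridised to 1 Affymetrix array. The labels do not say how the knockout allele was made, nor name the animal, litter or culture behind each sample. The p-values therefore weigh genotype against a spread between samples that may not be a spread between animals. The values are log2 expression values made by the authors with RMA, a method that equalises the arrays, so a shift of all genes would not be seen. *Hotair* itself was not analysed here, and the knockout labels therefore have no check by their target. Values of a gene on the arrays are given throughout in the order of replicate numbers 1, 2 and 3.

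The labelled cell type was checked against markers. Of 10 fibroblast markers 8 were above the background limit explained below on all 6 arrays, among them the collagens *Col1a1*, *Col1a2* and *Col3a1*. The other two were low on wild-type replicate 2: the surface protein *Thy1* was 12.15, 4.65 and 7.17 on wild-type arrays and 11.71, 10.54 and 10.28 on knockout ones, and the matrix proteoglycan *Lum* was 8.79, 5.03 and 6.06 on wild-type arrays and 10.46, 8.77 and 8.56 on knockout ones. *Dcn*, another matrix proteoglycan, was also lowest there with 10.94, 6.87 and 9.9998 on wild-type arrays and 11.54, 12.98 and 12.58 on knockout ones, a difference between genotypes of 3.10 ± 1.08 (SE; unadjusted p = 0.0296 and adjusted p = 0.743 by limma). Among the markers of other cells, *Pecam1* and *Cdh5* of endothelium, *Ptprc* of leukocytes, *Myod1* of muscle and *Cdh1* and *Krt14* of keratinocytes were below the limit on all 6 arrays. *Epcam*, an epithelial surface protein, *Krt5* and *Krt10*, keratinocyte keratins, *Csf1r* and *Cd14* of leukocytes, and *Acta1* and *Des* of muscle were above it on all 6. So were *Sox10* and *Mitf* of the glial and melanocyte list, and *Kdr* of endothelium was above it on 5. In all, 3 of 7 keratinocyte, 0 of 5 endothelial, 2 of 6 leukocyte, 2 of 5 muscle, 2 of 3 glial and melanocyte and 2 of 4 cartilage and bone markers measured were above it on all 6, and 0 genes of these lists passed the test between genotypes. The log2 of the summed marker signal of fibroblast genes ran from 16.4 to 16.5 in wild type, and from 16.5 to 16.8 in knockout, and that of muscle genes from 9.39 to 12.9 and from 7.77 to 11.6, in the same order. For keratinocyte genes it ran from 8.99 to 9.27 and from 8.68 to 9.16, for endothelial genes from 6.72 to 6.93 and from 6.65 to 6.88, and for leukocyte genes from 9.05 to 9.42 and from 8.15 to 9.43. For glial and melanocyte genes it ran from 7.94 to 8.29 and from 8.88 to 9.19, without overlap, and for cartilage and bone genes from 8.15 to 9.96 and from 8.34 to 8.56. Of the 3 glial and melanocyte genes only *Mitf* stood apart. It was 6.74, 7.22 and 7.71 on wild-type arrays and 8.51, 8.92 and 8.80 on knockout ones. *Sox10* and *Dct* differed by only −0.08 and −0.01. *Dsp* of the keratinocyte list was 6.43, 6.74 and 6.18 on wild-type arrays and 5.49, 3.58 and 3.70 on knockout ones. *Cd14* was 8.17, 8.35 and 8.89 on wild-type arrays and 7.89, 5.87 and 5.75 on knockout ones. Neither overlapped, with differences of −2.20 ± 0.54 and −1.97 ± 0.61 (SE; unadjusted p = 0.00691 and 0.0187, adjusted p = 0.743 for both by limma). Of 7 keratinocyte genes 3 were higher in knockout, and of 6 leukocyte genes 4 were. The part of these cells in the Hox values was not tested. In bulk RNA, fewer cells of a type and less RNA per cell cannot be told apart. Replicate 1 of both genotypes was low in 5 proliferation genes, with a median of −1.56 in wild type and −1.48 in knockout relative to each gene's mean, against 0.56 to 1.12 on the other arrays. Knockout replicate 1 also had a larger difference between the 3′ and 5′ control probe sets than the others. On the log2 scale it was 0.63 for *Actb* and 0.75 for *Gapdh*, against at most 0.215 and −0.03. Such a difference can come from RNA degradation, but its source was not tested.

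Of the 33 Hox genes 17 were above background on every array, and their number differed by cluster. The files hold no detection calls, so a limit was taken from 72 receptor genes of smell and taste neurons, which fibroblasts are not known to use: their 95th percentile was 5.31 log2 units. By this limit 19 of 33 Hox genes (57.6%) were above background on all 3 wild-type arrays and 17 (51.5%) on all 3 knockout arrays, against 61.5% and 62.5% of all genes. The 17 were above it on all 6 arrays (59.9% of all genes were), 11 were below it on all 6 (28.7% of all genes were) and 5 crossed it. The 17 took values from 5.71 to 10.85, and the 11 from 3.16 to 5.23. The limit is not sharp: the highest mean of a receptor gene was 6.23, above the lowest values of some Hox genes counted here. *Pdx1*, a pancreas factor, lay at or just above the limit on all 6 arrays (5.66, 5.57 and 5.31 on wild-type arrays and 5.34, 5.37 and 5.49 on knockout ones). Signals of different probe sets depend on the probes, so levels are not ranked between genes here.

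**Figure D1:**
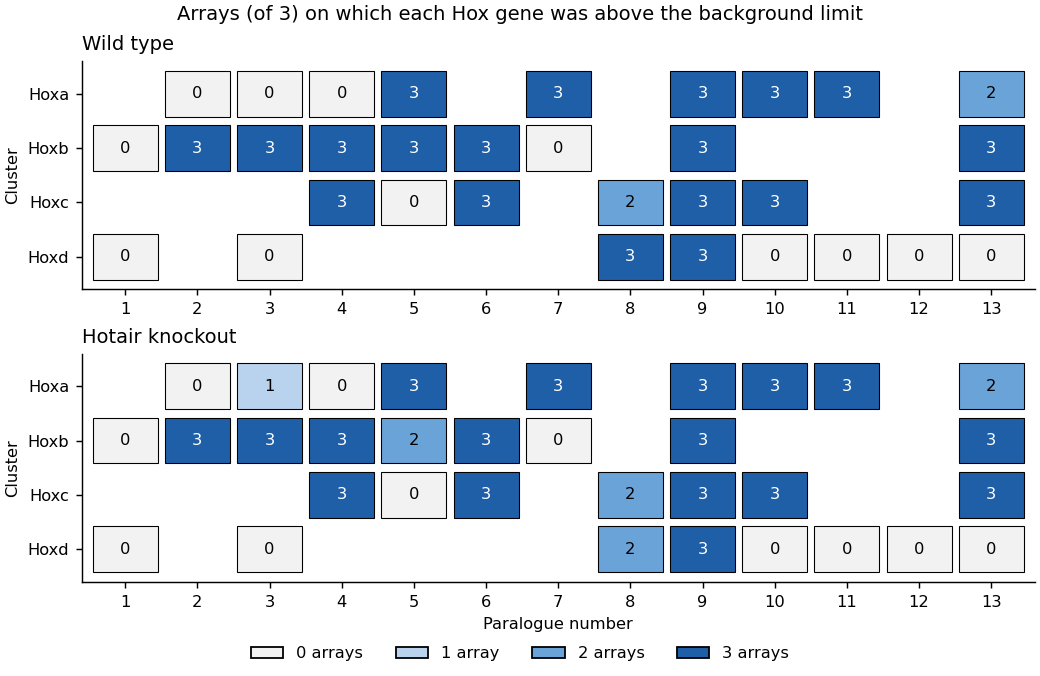
Number of arrays, of 3 per genotype, on which each measured Hox gene was above the background limit of 5.31, by cluster (rows) and paralogue number (columns), for wild type above and Hotair knockout below. Empty places were not analysed or hold no gene; all 4 genes of group 9 were above the limit on every array, and Hoxd10 to Hoxd13 on none.

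In the Hoxa cluster the middle and posterior genes were above background, except *Hoxa13*, which crossed the limit, and the anterior ones were at or under it. *Hoxa2*, which patterns the hindbrain and its neural crest, was 3.42, 3.34 and 3.62 on wild-type arrays and 3.39, 3.18 and 3.29 on knockout ones, and *Hoxa4* was 3.78, 3.85 and 3.87 on wild-type arrays and 3.63, 3.54 and 3.77 on knockout ones, all far under the limit. *Hoxa3* was at the limit with 5.29, 5.18 and 5.22 on wild-type arrays and 5.46, 5.05 and 5.10 on knockout ones, and knockout replicate 1 exceeded it. Of its 3 other probe sets 1 exceeded the limit on wild-type replicate 1 (5.43) and on no other array, and the others on none. By this limit the border ran between *Hoxa4* and *Hoxa5*, a gene needed for lung and trunk patterning, which was 6.49, 6.78 and 6.29 on wild-type arrays and 6.59, 5.74 and 6.15 on knockout ones, above the limit on each array.

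*Hoxa7*, a gene of the thoracic region, was 7.40, 7.10 and 7.36 on wild-type arrays and 7.37, 6.44 and 6.71 on knockout ones. *Hoxa9*, used in the lumbar region and in blood stem cells, was 8.62, 10.19 and 9.85 on wild-type arrays and 8.96, 10.12 and 9.56 on knockout ones, and replicate 1 was its lowest array in both genotypes. Both genes were above the limit on all 6 arrays, and a second probe set of *Hoxa5* and one of *Hoxa9* were too, while the second one of *Hoxa10* was above it on 2 arrays. *Hoxa10*, which patterns the lumbar spine and the uterus, was 8.72, 9.29 and 8.72 on wild-type arrays and 8.82, 9.26 and 9.76 on knockout ones, with knockout replicate 3 the highest. *Hoxa11*, a gene of the forearm and kidney, was 8.10, 8.56 and 8.32 on wild-type arrays and 7.86, 8.81 and 9.40 on knockout ones, and again knockout replicate 3 was the highest. *Hoxa13*, the last gene of the cluster and a gene of the digits and the hindgut, crossed the limit with 5.27, 6.46 and 5.55 on wild-type arrays and 4.63, 5.76 and 5.68 on knockout ones: replicate 1 was under it in both genotypes, and the 4 other arrays were over it.

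In the Hoxb cluster 3 of 4 anterior genes were above background. *Hoxb1*, a hindbrain gene, was 3.49, 3.36 and 3.45 on wild-type arrays and 3.56, 3.22 and 3.52 on knockout ones and stood under the limit. *Hoxb2*, *Hoxb3* and *Hoxb4*, used in the hindbrain and neck, were over it on all 6 arrays. *Hoxb2* was 9.61, 8.79 and 8.39 on wild-type arrays and 8.53, 8.71 and 8.58 on knockout ones, with wild-type replicate 1 above the other 5. *Hoxb3* was 7.64, 8.71 and 7.86 on wild-type arrays and 8.04, 7.47 and 7.14 on knockout ones, with wild-type replicate 2 the highest. *Hoxb4* was 8.44, 7.29 and 6.67 on wild-type arrays and 8.61, 6.90 and 6.89 on knockout ones, so that the replicate 1 arrays of both genotypes exceeded all others; its second probe set was above the limit on 2 arrays.

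The middle Hoxb genes *Hoxb5* and *Hoxb6* varied widely between arrays of a genotype. *Hoxb5*, a gene of the shoulder region and the enteric nervous system, was 5.55, 7.08 and 5.31 on wild-type arrays and 6.21, 5.36 and 4.73 on knockout ones, barely above the limit on wild-type replicate 3 and below it on knockout replicate 3. *Hoxb6*, a gene of the trunk, was 9.24, 10.04 and 8.50 on wild-type arrays and 9.54, 8.23 and 7.33 on knockout ones, a range of 1.55 log2 units within wild type and 2.22 within knockout. *Hoxb7* was listed between 3.85 and 4.20 by a probe set that stayed under the limit. At the posterior end *Hoxb9* was 10.31, 9.89 and 9.58 on wild-type arrays and 10.50, 9.28 and 9.22 on knockout ones, highest in replicate 1 of both genotypes. *Hoxb13*, the gene that ends growth of the tail in the embryo, was 10.37, 10.17 and 9.68 on wild-type arrays and 10.74, 10.08 and 10.85 on knockout ones, above the limit on all 6 arrays, and its genotypes overlapped.

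The Hoxc cluster, from which *Hotair* is transcribed, had genes above background at both ends. *Hoxc4*, its most anterior gene, was 5.79, 6.20 and 5.71 on wild-type arrays and 5.80, 7.06 and 6.45 on knockout ones. *Hoxc5* was 4.88, 5.10 and 5.22 on wild-type arrays and 4.54, 4.97 and 4.60 on knockout ones, under the limit on all arrays, as were its 2 other probe sets. *Hoxc6*, a gene of the thorax, was 6.98, 6.73 and 6.57 on wild-type arrays and 7.07, 6.92 and 6.82 on knockout ones, with a range over the 6 arrays of only 1.41-fold. *Hoxc8*, which patterns the ribs and the motor neurons of the forelimb, was 4.36, 7.70 and 6.02 on wild-type arrays and 5.29, 7.34 and 5.40 on knockout ones, a range of 10.1-fold over the 6 arrays and the widest of the 33. Its 4.36 on wild-type replicate 1 and 5.29 on knockout replicate 1 were under the limit, and replicate 2 was highest in both genotypes.

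The posterior Hoxc genes were above the limit on every array. *Hoxc9*, which limits where limb motor neurons form, was 7.56, 7.28 and 6.86 on wild-type arrays and 7.47, 7.38 and 7.06 on knockout ones. *Hoxc10*, a gene of the hindlimb level, was 8.89, 8.9999 and 8.67 on wild-type arrays and 9.13, 8.34 and 9.01 on knockout ones, with knockout replicate 2 the lowest. *Hoxc13*, best known for its part in hair and nail growth, was 8.89, 9.58 and 8.96 on wild-type arrays and 9.41, 8.07 and 8.70 on knockout ones, and the lowest array was the same. *Hoxc10* and *Hoxc13* are the nearest measured genes on the sides of *Hotair*.

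In the Hoxd cluster only *Hoxd8* and *Hoxd9* had values above the limit. *Hoxd8* was 6.41, 6.02 and 6.33 on wild-type arrays and 6.14, 5.26 and 5.70 on knockout ones, with knockout replicate 2 under the limit, and its second probe set exceeded the limit on 2 arrays. *Hoxd9*, a gene of the lower spine and the limbs, was 7.53, 6.85 and 6.95 on wild-type arrays and 7.18, 6.19 and 6.53 on knockout ones. On their anterior side *Hoxd1*, which acts in pain-sensing neurons, was 3.39, 3.41 and 3.26 on wild-type arrays and 3.16, 3.24 and 3.18 on knockout ones, and *Hoxd3* was 3.70, 3.60 and 3.30 on wild-type arrays and 3.68, 3.65 and 4.04 on knockout ones.

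On the posterior side of this cluster *Hoxd10* was 3.98, 3.60 and 3.42 on wild-type arrays and 4.43, 3.62 and 3.73 on knockout ones, *Hoxd11* 4.84, 4.71 and 4.43 on wild-type arrays and 4.79, 4.44 and 4.68 on knockout ones and *Hoxd12* 4.10, 4.12 and 3.98 on wild-type arrays and 4.22, 3.94 and 3.99 on knockout ones. *Hoxd13*, a gene of the digits and genitals, was 5.03, 4.72 and 4.83 on wild-type arrays and 5.08, 4.56 and 5.23 on knockout ones. All 6 arrays were under the limit for each of these 4 genes, in wild type as in knockout, and a second probe set of *Hoxd13* was too. With the limit lowered to the 90th percentile of the receptor genes 22 Hox genes were above it in wild type and 20 in knockout, and with the 99th percentile 17 and 16. The 99th percentile was 5.75. In wild type *Hoxb5* fell under it on replicates 1 and 3 (5.55 and 5.31) and *Hoxc4* on replicate 3 (5.71). In knockout *Hoxa5* fell under it on replicate 2 (5.74).

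**Figure D2:**
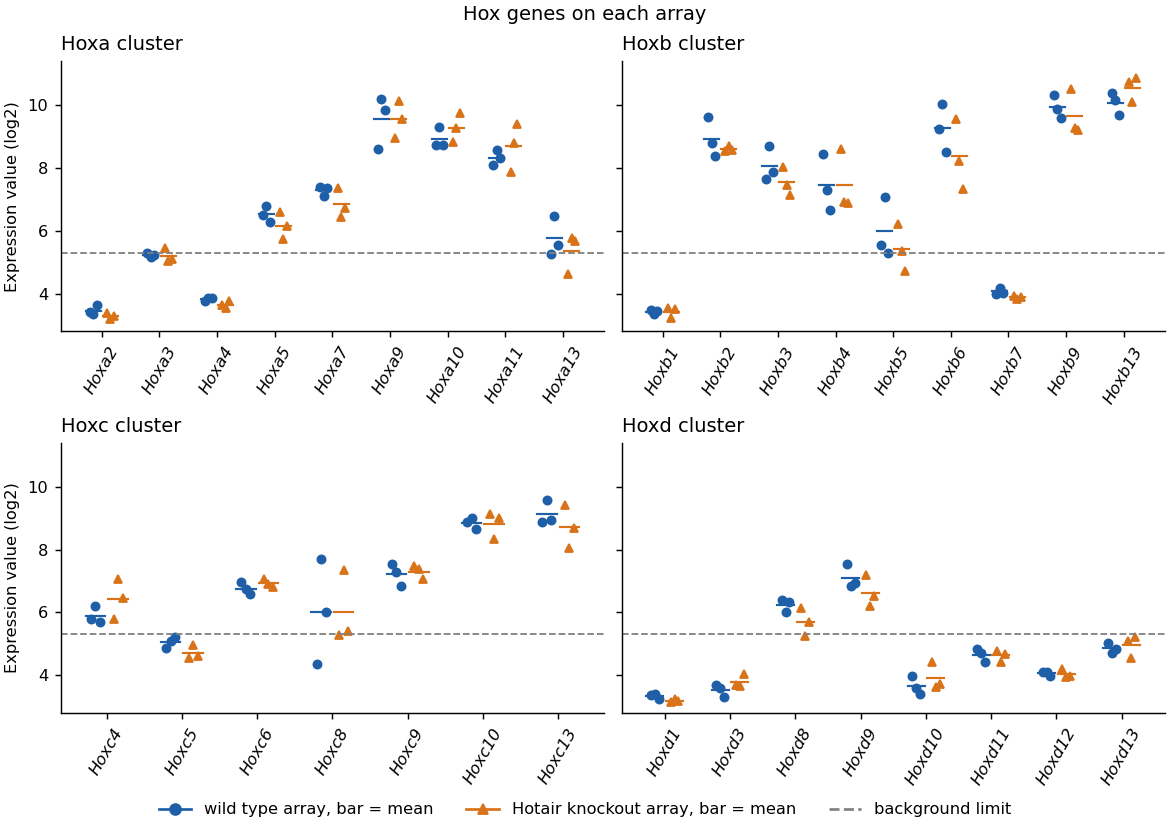
Log2 expression value of the 33 Hox genes on each array, in 4 panels by cluster, with wild-type arrays as circles, knockout arrays as triangles and bars at the mean of 3. The dashed line is the background limit of 5.31; the genotypes overlap for 30 genes, and the other 3, Hoxa4, Hoxb7 and Hoxd1, lie under the limit.

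The border between *Hoxd9* and *Hoxd10* falls between adjacent genes, so the 250 bases before the RefSeq start of both, and of *Hoxd8*, are shown (assembly GRCm38.p6, plus strand, 5′ to 3′). Capitals mark the matches, on either strand, of 4 motifs searched: the TATA box TATAAA, the CCAAT box CCAAT, the GC box GGGCGG and a joint site of Pbx and Hox proteins, TGATNNAT, of which none contains another. *Hoxd8* spans chr2:74704365-74704614, *Hoxd9* chr2:74697513-74697762 and *Hoxd10* chr2:74691641-74691890.
Hoxd8: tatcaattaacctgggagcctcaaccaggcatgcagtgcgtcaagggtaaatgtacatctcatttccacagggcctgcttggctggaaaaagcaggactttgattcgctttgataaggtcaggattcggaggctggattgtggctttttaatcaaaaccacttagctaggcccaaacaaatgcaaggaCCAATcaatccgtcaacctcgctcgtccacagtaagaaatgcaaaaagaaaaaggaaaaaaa
Hoxd9: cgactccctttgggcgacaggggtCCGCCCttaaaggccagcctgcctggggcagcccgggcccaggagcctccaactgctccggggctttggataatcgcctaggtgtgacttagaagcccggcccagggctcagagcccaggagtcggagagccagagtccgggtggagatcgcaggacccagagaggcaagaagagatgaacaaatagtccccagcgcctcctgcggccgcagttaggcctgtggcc
Hoxd10: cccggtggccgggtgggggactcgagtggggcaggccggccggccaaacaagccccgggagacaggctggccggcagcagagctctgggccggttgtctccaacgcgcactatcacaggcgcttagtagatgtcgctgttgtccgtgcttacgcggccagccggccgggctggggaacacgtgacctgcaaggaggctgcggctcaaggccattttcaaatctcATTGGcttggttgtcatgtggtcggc
The *Hoxd8* window held 1 CCAAT box, 62 bases before the start, 44.4% G or C and 6 CG dinucleotides. In *Hoxd9* there was 1 GC box on the minus strand, 226 bases before the start, with 65.2% G or C and 13 CG dinucleotides. *Hoxd10*, which was under the limit, had 1 CCAAT box on the minus strand, 26 bases before the start, with 65.6% G or C and 20 CG dinucleotides. Of 32851 windows of this length over all genes, 33.8% held a CCAAT box, 32.7% a GC box, 12.4% a TATA box and 7.68% the joint site. Of the 33 members 19 had an entry, with 21 windows. Among these 11 held a CCAAT box, 8 a GC box, 2 a TATA box and 3 the joint site. Their median content of G or C was 59.2% and their median number of CG dinucleotides 13, against 52.4% and 6 over all windows. These matches describe the letters and show no binding.

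By paralogue number, all 4 genes of group 9 were above the limit on all arrays, and so were both measured genes of group 6, *Hoxb6* and *Hoxc6*. Only groups 9 and 13 had 4 genes measured. In group 13, the end of each cluster, *Hoxb13* and *Hoxc13* were above it, *Hoxa13* crossed it and *Hoxd13* was under it. In group 10 *Hoxa10* and *Hoxc10* were above it and *Hoxd10* was not, and in group 11 *Hoxa11* was and *Hoxd11* was not. In group 4 *Hoxb4* and *Hoxc4* were above it and *Hoxa4* was not. In group 1 neither measured gene was above it on any array. By position, 4 of 10 anterior genes (groups 1 to 4), 4 of 9 middle genes (5 to 8) and 9 of 14 posterior genes (9 to 13) were above it on all 6 arrays. By cluster this held for 5 of 9 in Hoxa, 6 of 9 in Hoxb, 5 of 7 in Hoxc and 1 of 8 in Hoxd.

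The 33 Hox genes gave no call between wild type and knockout. With limma and Benjamini-Hochberg adjustment over all 18193 genes, 0 of 33 had an adjusted p under 0.05 (0.0% of all genes did), and the smallest adjusted p of a Hox gene was 0.768, for *Hoxd8*. Without adjustment 0 of 33 had p under 0.05, while 6.68% of all genes did, 4.01% higher and 2.67% lower in knockout. Of the 33 differences, knockout minus wild type on the log2 scale, 22 lay below 0 and 11 above, and they ran from −0.89 to 0.53. This is 66.7% below 0, against 48.9% of all genes. The median was −0.03 for Hox genes and 0.01 for all genes. Without wild-type replicate 1 the Hox median was −0.07, without wild-type replicate 2 −0.05, without knockout replicate 2 −0.08 and without knockout replicate 3 −0.04. Without knockout replicate 1 it was −0.15, and without wild-type replicate 3 it was −0.14. The test left room for sizeable differences: among the 17 genes above background the 95% interval of the difference reached between 0.40 and 1.62 to each side.

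**Figure D3:**
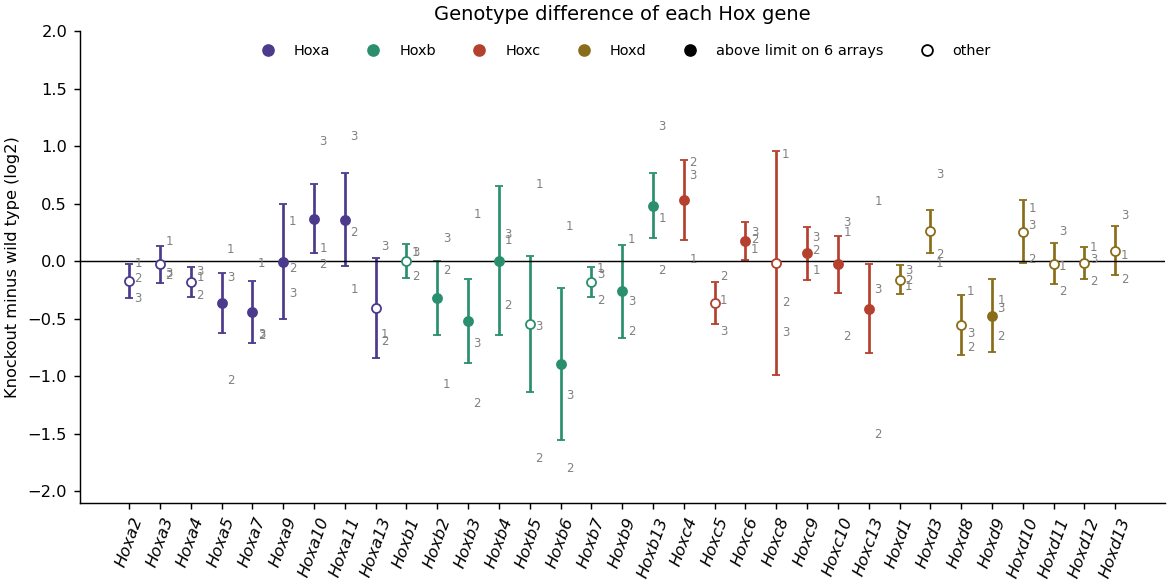
Knockout minus wild-type difference (log2) of each Hox gene, with the standard error of limma as bars; filled points are genes above the background limit on all 6 arrays and open points the others, coloured by cluster. The small digits 1, 2 and 3 mark the difference between arrays of the same replicate number; 0 of 33 differences passed the test.

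Among Hoxc genes, *Hoxc4* had the largest difference on the higher side of all 33, 0.53 ± 0.35 (SE; 95% interval from −0.32 to 1.39). By replicate number it was 0.01, 0.86 and 0.74, so the replicate 1 arrays were level and the others 0.74 or more higher in knockout. Without knockout replicate 2 *Hoxc4* stood at 0.22 and *Hoxb13* at 0.72, and without knockout replicate 1 *Hoxc4* stood at 0.85. For *Hoxc6* the differences by replicate number were 0.09, 0.18 and 0.25, and its 2 other probe sets were 0.28 and 0.54 higher on average. Both of these were lower in knockout in replicate 1, with 5.64 against 5.96 and 5.47 against 5.67 in wild type. *Hoxc9* and *Hoxc10* had 95% intervals of the difference from −0.50 to 0.64 and from −0.64 to 0.58. *Hoxc13* differed by −0.41 ± 0.39 (SE), and by 0.52, −1.51 and −0.25 by replicate number, so that replicate 1 went against the others. Without replicate 1 of both genotypes *Hoxc13* stood at −0.88 ± 0.31 and *Hoxc4* at 0.80 ± 0.28 (SE), with adjusted p by limma of 0.138 and 0.136.

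In the Hoxd cluster *Hoxd8* and *Hoxd9* had lower values in knockout in each replicate number. *Hoxd8* differed by −0.27, −0.76 and −0.63, and by −0.55 ± 0.26 (SE; 95% interval from −1.19 to 0.09) over the 6 arrays, where its genotypes overlapped on 1 knockout array. *Hoxd9* differed by −0.35, −0.66 and −0.42, and by −0.47 ± 0.32 (95% interval from −1.26 to 0.31). With the replicate number as a block these were the only 2 Hox genes with an unadjusted p under 0.05 (0.0275 and 0.0323; 11.1% of all genes had one and 6.06% of Hox genes), and with adjustment the limma p of both was 0.425 and 0.427. The other probe set of *Hoxd8* was 0.24 lower in knockout on average, but not in replicate 1 (5.48 in knockout and 5.44 in wild type). The 4 posterior genes of this cluster, all under the limit, had 95% intervals of the difference from −0.42 to 0.94 for *Hoxd10*, from −0.46 to 0.41 for *Hoxd11*, from −0.37 to 0.33 for *Hoxd12* and from −0.44 to 0.63 for *Hoxd13*, and RMA compresses differences of dim probe sets.

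Hoxa and Hoxb genes of the middle part of the clusters stood lower in knockout on average. So did the anterior genes *Hoxb2* and *Hoxb3* and the posterior gene *Hoxb9*. *Hoxa5* differed by 0.10, −1.04 and −0.15 by replicate number and *Hoxa7* by −0.03, −0.65 and −0.64. For *Hoxb3*, *Hoxb5* and *Hoxb6* the sign turned between replicate numbers: they differed by 0.41, −1.24 and −0.72, by 0.66, −1.72 and −0.58 and by 0.30, −1.81 and −1.17. For *Hoxb2* and *Hoxb9* the averages were −0.32 ± 0.32 and −0.26 ± 0.40 (SE), and without wild-type replicate 1 *Hoxb2* stood at 0.018. *Hoxb6* had the largest average difference of all 33, −0.89 ± 0.66 (SE; 95% interval from −2.51 to 0.73), but the value depended on the arrays included. It was −0.50 without wild-type replicate 2 and −0.37 without knockout replicate 3, where *Hoxd8* differed more (−0.67 and −0.55), and −1.48 without knockout replicate 1. Of the 9 middle genes of the 4 clusters 8 were below 0, with a median of −0.365, while the median was −0.09 for the 10 anterior and −0.01 for the 14 posterior genes. By replicate number the middle genes had medians of 0.09, −0.65 and −0.61, so the lower values came from replicates 2 and 3.

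*Hoxa10*, *Hoxa11* and *Hoxb13* stood higher on average. Knockout replicate 3 exceeded the wild-type array of the same number by 1.04 for *Hoxa10*, 1.08 for *Hoxa11* and 1.17 for *Hoxb13*, while the other 2 replicate numbers gave 0.10 and −0.03, −0.25 and 0.25, and 0.37 and −0.09. The averages were 0.37 ± 0.30, 0.36 ± 0.40 and 0.48 ± 0.29 (SE). Without knockout replicate 3 they were 0.13, 0.0028 and 0.34, so that array carried most of the difference of *Hoxa10* and *Hoxa11* but not that of *Hoxb13*. Knockout replicate 1 of *Hoxb13* also exceeded all wild-type arrays, and without wild-type replicate 3, its lowest array, the difference of *Hoxb13* was 0.29. *Hoxa13* averaged −0.41 ± 0.44 and *Hoxc8* −0.02 ± 0.97 (SE), with replicate-number differences of −0.64, −0.70 and 0.12 and of 0.93, −0.37 and −0.62. *Hoxa9*, *Hoxb1* and *Hoxb4* averaged within 0.01 of 0, where the sign carries no information: those of *Hoxb1* and *Hoxb4* flip with the scaling of the arrays.

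The arrays of the genotypes did not overlap for 3 of 33 Hox genes, or 9.09%, a share near the 9.93% of all genes. The knockout values all lay below the wild-type values for these 3 (against 4.38% of all genes), *Hoxa4*, *Hoxb7* and *Hoxd1*. All are under the background limit, and they differed by −0.18, −0.18 and −0.16. Knockout values all lay above the wild-type values for 0 Hox genes, against 5.56% of all genes. By replicate number 8 Hox genes (24.2%) were lower in knockout in all 3, against 13.4% of all genes, namely *Hoxa2*, *Hoxa4*, *Hoxa7*, *Hoxb7*, *Hoxc5*, *Hoxd1*, *Hoxd8* and *Hoxd9*. Of these, *Hoxa7* and *Hoxd9* were above the limit on all 6 arrays. *Hoxc4*, *Hoxc6* and *Hoxd10* (9.09%) were higher in all 3, against 17.1% of all genes. These counts hold for the chosen probe sets. Of 15 other probe sets of Hox genes 11 had the sign of the chosen one and 4 the opposite sign. That of *Hoxa4* averaged 0.10 higher in knockout, with overlap, and those of *Hoxc5* averaged 0.15 higher and 0.31 lower. The other probe sets of *Hoxd8* and *Hoxc6* broke the order in replicate 1.

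Leaving out both arrays of replicate 1, which stand apart in proliferation genes, called many genes but no Hox gene. With 2 arrays per genotype limma called 14.0% of all genes, and 0 of 33 Hox genes. The smallest adjusted p of a Hox gene was then 0.0809, for *Hoxa7* (−0.65 ± 0.18, SE). At an unadjusted p under 0.05 there were 9 Hox genes, 27.3%, against 28.1% of all genes. In that fit 23 of 33 differences were below 0, with a median of −0.16. With array weights limma called 11.5% of all genes and again 0 Hox genes, where *Hoxb3* came nearest (adjusted p = 0.0538).

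The spread of Hox genes between arrays was near that of other genes above the limit. The 17 genes above the limit on all arrays had a median range over the 6 arrays of both genotypes of 1.28 log2 units, against 1.09 for all genes above it, and a median residual SD within genotypes of 0.445, against 0.399. The narrowest range among them was 0.50, of *Hoxc6*, and the widest 2.72, of *Hoxb6*. *Hoxc8*, which crossed the limit, had a residual SD of 1.43.

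These genes did not share 1 profile over the arrays. For 8 genes (24.2%, against 6.6% of all genes) wild-type replicate 2 was the highest wild-type array and knockout replicate 1 the highest knockout array; this profile was chosen after the values were seen. They were *Hoxa5*, *Hoxb3*, *Hoxb5*, *Hoxb6*, *Hoxb7*, *Hoxc10*, *Hoxc13* and *Hoxd12*, of which *Hoxb7* and *Hoxd12* were under the limit. *Hoxb3*, *Hoxb5* and *Hoxb6* lie close in their cluster, but *Hoxb4*, between *Hoxb3* and *Hoxb5*, was instead highest on replicate 1 in both genotypes. On wild-type replicate 2 the fibroblast markers *Thy1*, *Lum*, *Dcn* and *Col3a1* had their lowest values of the 6 arrays. For *Col3a1* the margin was small, with 13.67 against 13.755 on wild-type replicate 3. There *Col1a1*, *Col1a2*, *Pdgfrb* and *Fn1* had their highest values of the wild-type arrays and *Vim* its lowest, and *Pdgfra* lay between its other wild-type values. For 6 genes (18.2%, against 15.7%) replicate 1 was the lowest in both genotypes: *Hoxa9*, *Hoxa10*, *Hoxa11*, *Hoxa13*, *Hoxc5* and *Hoxc8*. For 11 (33.3%, against 30.4%) it was the highest in both, among them *Hoxb4*, *Hoxb9*, *Hoxc6*, *Hoxc9*, *Hoxd8* and *Hoxd9*. Proliferation genes were low on replicate 1 by the values given above, and the part of this or of the fibroblast markers in the Hox values was not tested.

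**Figure D4:**
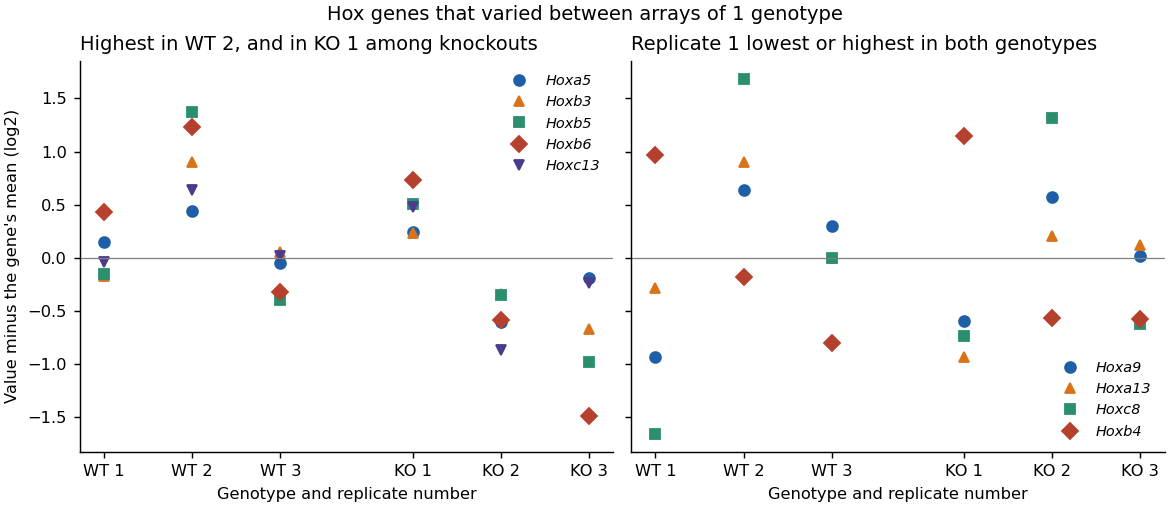
Value of selected Hox genes on each array minus the gene's mean over the 6 arrays (log2), with genotype and replicate number on the horizontal axis (WT wild type, KO knockout). On the left wild-type replicate 2 is the highest array for each of the 5 genes; on the right replicate 1 is the lowest of its genotype for Hoxa9, Hoxa13 and Hoxc8 and the highest for Hoxb4 in both genotypes. The genes were picked after their values were seen.

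Partners of Hox proteins were measured as well. Pbx, Meis and Pknox proteins bind DNA together with Hox proteins, and 6 of the 8 measured genes were above the limit on all 6 arrays. None passed the test (0 of 8). *Pbx2* was 9.15, 8.89 and 8.42 on wild-type arrays and 9.26, 9.88 and 9.79 on knockout ones, with all knockout arrays above all wild-type ones, a difference of 0.82 ± 0.27 (SE; unadjusted p = 0.0217 and adjusted p = 0.743 by limma). *Meis1* was 7.17, 6.73 and 6.85 on wild-type arrays and 7.31, 7.57 and 7.93 on knockout ones, likewise without overlap, a difference of 0.69 ± 0.22 (unadjusted p = 0.0199, adjusted p = 0.743). *Pbx3* was 9.33, 8.95 and 9.44 on wild-type arrays and 9.94, 9.50 and 9.60 on knockout ones, again without overlap, a difference of 0.44 ± 0.20 (unadjusted p = 0.0733, adjusted p = 0.766). Of all genes 9.93% did not overlap and 6.68% had an unadjusted p under 0.05. The differences of the 8 ran from −0.235 to 0.823 with a median of 0.05. *Pknox2* was 6.55, 4.96 and 4.79 on wild-type arrays and 7.62, 4.35 and 4.54 on knockout ones and exceeded the limit only on replicate 1 of both genotypes.

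Genes that act upstream of Hox genes were mostly under the limit. *Cdx1*, *Cdx2* and *Cdx4*, the factors that switch on trunk Hox genes in the embryo, were under it on all 6 arrays, and so were *Aldh1a2*, which makes retinoic acid, *Cyp26a1*, which breaks it down, and the receptor *Rarb*. The other 4 of 10 were above it, among them *Cyp26b1*, another retinoic acid hydroxylase, with 6.77, 8.90 and 8.22 on wild-type arrays and 7.46, 6.75 and 6.78 on knockout ones, and *Gdf11*, a signal that sets the start of the posterior programme, on all 6 arrays. Of 10 genes 0 passed, with a median difference of −0.03. All 12 trithorax and Polycomb regulators, which keep Hox genes on or off, were above the limit and 0 passed, with a median difference of 0.24 and 8 of 12 above 0. *Kmt2a*, a trithorax methyltransferase, was 7.58, 9.11 and 9.55 on wild-type arrays and 7.58, 8.91 and 8.18 on knockout ones, and *Cbx2*, a Polycomb protein that reads the histone mark of silent genes, was 6.48, 7.15 and 6.99 on wild-type arrays and 6.86, 7.66 and 7.65 on knockout ones. *Evx1* and *Evx2*, which lie next to *Hoxa13* and *Hoxd13*, differed: *Evx1* was under the limit on all 6 arrays and *Evx2* above it on 5, with 5.98, 5.36 and 5.53 on wild-type arrays and 5.25, 5.53 and 5.67 on knockout ones. Of these 6 neighbours and ParaHox genes, relatives of Hox genes outside the clusters, 0 passed, with a median difference of −0.125.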

How the data were processed

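RNA was measured on 6 Affymetrix mouse expression arrays, 3 per genotype. The authors deposited log2 values; RMA and R 2.11.1 are named in the submitters' processing notes, which name no annotation. Of 45101 probe sets 64 were controls; 34945 had 1 gene by the platform table, 932 several and 9160 none. Only those with 1 gene were named, and the brightest stood for its gene. By Entrez identifier 99.42% matched RefSeq (GRCm38.p6), which changed 0 symbols and was used for names, order and promoter sequences only. The test between genotypes was limma (version 3.58.1, under R 4.3.3; lmFit and eBayes, genotype as the only term) over 18193 genes, with Benjamini-Hochberg adjustment at 0.05; the script was tested on simulated data. An exact permutation test of 3 against 3 arrays cannot go below 0.1. The number of arrays limits the precision.

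The members, lists and tests were chosen with earlier results of these data known. All members could be named; other genes came from fixed lists, except where said. Both genotypes carry replicate numbers 1 to 3 in the labels. Same-numbered arrays deviated together from their genotype's mean, with correlations of 0.51, 0.39 and 0.35. Such deviations cancel out within a genotype, so a shift shared by the replicate 1 arrays alone can make replicates 2 and 3 correlate. Wild-type replicate 3 correlated better with knockout replicate 2 (0.43) than with knockout replicate 3. The correlations therefore cannot decide whether the numbers 2 and 3 pair the arrays, and differences by replicate number are descriptions. The replicate block, each array left out, both replicate 1 arrays left out, renormalisation, array weights, eBayes settings, a filter on dim genes, other probe sets and other limits were the alternatives.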

Additional observations from a re-analysis of the deposited data

How the results depend on the processing

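In all 16 alternatives limma called 0 of the Hox genes fitted, with the smallest adjusted p of a Hox gene between 0.0538 (array weights) and 1.0. The replicate block changed no call, and its count was 0. Hox genes above background numbered 17 to 22 in wild type and 16 to 21 in knockout over the other limits, rules and scalings, and 19 to 21 and 18 to 19 with 1 array left out. The median difference over Hox genes was −0.16 without both replicate 1 arrays, and between −0.153 and −0.0443 with 1 array left out. Of 516 recomputed differences of genes 477 kept their sign, and all 33 genes were uncalled throughout. Without both replicate 1 arrays *Hoxb1* was −0.033, *Hoxb2* 0.0564 and *Hoxb4* −0.0822. With quantile renormalisation *Hoxb1* was −0.0003 and *Hoxb4* −0.0387, and with array medians subtracted −0.0144 and −0.013. *Hoxb4* was −0.195 with the mean of its probe sets and −0.184 with array weights, and *Hoxc9* −0.0078 with array weights. The cause was not tested. With 1 array left out the difference changed sign for 12 genes, as follows: *Hoxa3* from −0.153 to 0.0524, *Hoxa9* from −0.47 to 0.316, *Hoxb1* from −0.0609 to 0.108, *Hoxb2* from −0.594 to 0.018, *Hoxb4* from −0.568 to 0.488, *Hoxb5* from −0.935 to 0.0035, *Hoxc8* from −0.853 to 0.817, *Hoxc9* from −0.118 to 0.232, *Hoxc10* from −0.18 to 0.216, *Hoxd11* from −0.137 to 0.0776, *Hoxd12* from −0.102 to 0.0366 and *Hoxd13* from −0.0429 to 0.289. Differences that kept their sign moved too: *Hoxb6* ran from −1.48 to −0.372, *Hoxc13* from −0.758 to −0.0843, *Hoxa11* from 0.0028 to 0.775, *Hoxb9* from −0.677 to −0.0379, *Hoxa13* from −0.652 to −0.0435, *Hoxd9* from −0.746 to −0.253 and *Hoxd8* from −0.774 to −0.332. Dim probe sets limit what the signal can show for the 11 genes under the background limit.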
